A study of Mus musculus with 8 samples.

Results

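Macrophages in which no molecule of the chemokine Cxcl9, the mannose receptor Mrc1 or the folate receptor Folr2 was counted are described here, in single-cell expression libraries of sorted leukocytes. They were selected on raw counts of unique molecular identifiers (UMIs, 1 per captured RNA molecule). A barcode usually stands for 1 cell. It was kept with 500 UMIs or more over 300 genes or more, of which mitochondrial UMIs made up no more than 10%. It counted as a macrophage with at least 10 UMIs summed over the complement genes C1qa, C1qb and C1qc, at least 1 UMI of Csf1r, and none of Cd3d, Cd3e, Cd3g or Cd79a. Of 25172 kept barcodes, 2784 were macrophages, and 2394 of these had no UMI of Cxcl9, Mrc1 or Folr2. The other macrophages were 260 with at least 1 UMI of Cxcl9, called Cxcl9 macrophages below, and 130 with Mrc1 or Folr2 but no Cxcl9. C1q, Csf1r, Cd3, Cd79a, Cxcl9, Mrc1 and Folr2 chose the barcodes, so their levels are descriptions only.

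The series concerns mice labelled SS, which the labels do not spell out, and control mice, with 4 animals of each genotype at about 12 weeks. The submandibular gland, a major salivary gland, was minced and digested with collagenase in a warm shaker, while its draining lymph nodes were only triturated. In all groups the cells were stained with the CD45.2 antibody 104 and sorted for CD45, a surface protein of leukocytes. The labels list 8 samples, 4 for gene expression and 4 for T cell receptors, so that each of SS gland, control gland, SS lymph node and control lymph node has 1 expression sample and no replicate; the receptor samples were not analysed here. The expression data are 4 libraries named C1, C2, C3 and C4, which no label ties to a genotype or a tissue. Values are therefore given per library; SS is not compared with control, nor gland with lymph node, and no test was made. Intervals are exact 95% intervals for counting error. They leave out how mice differ from each other, and those of levels also leave out how barcodes differ.

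Macrophages are phagocytes that live in almost every organ. They take up dead cells and debris through scavenger receptors, break them down in lysosomes, tag targets through complement and present peptides to T cells on MHC class II. When they sense microbes or tissue damage, NF-kB and AP-1 factors switch on genes for cytokines such as interleukin 1 and for chemokines that call in neutrophils and monocytes. Interferon gamma from T and NK cells switches on another programme, to which Cxcl9 belongs. Mrc1 and Folr2 mark a resident, often perivascular, kind of macrophage.

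Nearly all of these macrophages came from 1 library. C1 held 2276, C2 held 113, C3 held 4 and C4 held 1, and the last 2 libraries have too few for values. In C1 they were 93.1% (92.0 to 94.1%) of 2444 macrophages and 40.5% (39.2 to 41.8%) of kept barcodes. In C2 they were 34.7% (29.5 to 40.1%) of 326 macrophages and 2.23% (1.84 to 2.68%) of kept barcodes, and Cxcl9 macrophages were the larger set there, with 201 barcodes against 50 in C1. The share in C2 was lower at greater depth. It was 48.4% when every barcode was thinned to 3000 UMIs before the sets were formed, and 20.9% among barcodes at or above the median depth of macrophages, whereas the C1 share was 95.6% after thinning. Median depth was 6531.5 UMIs in C1 and 7750 UMIs in C2, below the 8417.5 and 10553 UMIs of Cxcl9 macrophages in the same libraries. No barcode was such a macrophage in more than 1 library, but 15, 28 and 24 of those in C1 carried a barcode that was also kept in C2, C3 and C4. Between 31 and 85 kept barcodes were shared by any pair of libraries.

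Some barcodes lay close to the thresholds. In C1, 37 of these macrophages had a C1q sum of 10 to 14, and 47 further barcodes had a sum of 5 to 9. In C1 91 of these macrophages had exactly 1 UMI of Csf1r. A further 70 barcodes of C1 met every criterion but had no UMI of Csf1r, 193 failed only through a UMI of Cd3, 19 had exactly 1 UMI of Cxcl9 and 64 had exactly 1 of Mrc1 or Folr2. Of the 113 in C2, 2 had a C1q sum of 10 to 14 and 5 had exactly 1 UMI of Csf1r. Outside the set, 5 barcodes of C2 had a sum of 5 to 9, 13 had no Csf1r, 17 failed only through Cd3, 36 had exactly 1 UMI of Cxcl9 and 3 exactly 1 of Mrc1 or Folr2. The median C1q sum was 95 UMIs in C1 and 152 in C2.

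Genes that the selection did not use also marked these barcodes as macrophages. Levels are in CPM, which scales a gene's summed UMIs to 1000000 UMIs of the whole set. The apolipoprotein Apoe (chr7:19696244-19701310), which carries lipid out of macrophages, stood at 17016 CPM (16953 to 17079) in C1 and 7765 CPM (7585 to 7948) in C2. After thinning each barcode to 3000 UMIs, 99.5% of 2154 barcodes in C1 and 90.4% of 104 in C2 held Apoe, against 9.07% and 2.4% of T cells. The 122 and 9 shallower barcodes were left out of these shares. The lysosomal protein Cd68 stood at 678 and 605 CPM in C1 and C2, and Adgre1, which encodes the F4/80 antigen, at 315 and 389. Among the genes that did choose the barcodes, C1qa (chr4:136895916-136898844, GRCm38.p6 build) stood at 5336 and 7352 CPM and Csf1r, the receptor for macrophage growth factor on chromosome 18, at 1100.3 and 982.

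Markers of other cells were low. Summed over its list, monocyte markers reached 56.4 CPM in C1 and 72.4 in C2, with the classical monocyte marker Ly6c2 at 5.41 CPM and 0. Neutrophil markers reached 24.9 and 11 CPM, T cell markers 27.9 and 17.5, and B cell markers 7.79 and 20.8. All 6 mast cell markers were at 0 in both libraries. NK cell markers summed to 251 CPM in C1 and 4.39 in C2. Free RNA, measured in barcodes with at least 50 but under 200 UMIs, held 308 CPM of them in C1. There it lay above these macrophages for 5 of the 8 NK genes and not for the rest. All 8 were at least 2-fold higher in C1 than in C2, beside 8.56% of all genes tested, with a median log2 ratio of 2.88. Salivary epithelial markers, led by Mucl2, summed to 7747 CPM in C1 and 10052 in C2, against 392812 and 313352 CPM in free RNA. Plasma cell markers summed to 278 and 337 CPM and fibroblast markers to 0.608 and 2.19. The plasmacytoid dendritic cell list, at 1066 and 703 CPM, was mostly Bst2, which macrophages also express. Some foreign markers lay above free RNA in C1. Haemoglobin Hbb-bs stood at 335 CPM against 117, but 94.6% of its UMIs lay in 1 barcode; endothelial markers summed to 49.1 against 17.4 CPM, with 16% of the Plvap UMIs in 1 barcode. Conventional dendritic cell markers summed to 25.6 CPM in C1 and 117 in C2, against 27 and 19.8 in free RNA. In C2 Xcr1 and Clec9a stood at 48.2 and 50.4 CPM, against 1.22 and 7.06 in C1, while Flt3 had 1 UMI and Cd209a none; their part in the values of C2 was not tested.

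Chemokine and interleukin 1 genes were high in both libraries and uneven among barcodes. Cxcl2 (chr5:90903899-90905938), a chemokine for neutrophils, stood at 4384 CPM (4352 to 4416) in C1 and 2096 CPM (2003 to 2192) in C2. Il1b (chr2:129364569-129371164), the precursor of interleukin 1 beta, stood at 3366 CPM (3338 to 3394) in C1 and 3268 CPM (3152 to 3388) in C2. The level of Cxcl2 in C1 was 2.09 times that in C2, whereas for Il1b the ratio was 1.03. In C2 1 barcode held 16.4% of the Cxcl2 UMIs, and in C1 no barcode held more than 0.44%. Both genes were far above free RNA, where Cxcl2 stood at 298 and 16.1 CPM and Il1b at 214 and 43.3.

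The start sites of these genes are shown because NF-kB and AP-1 sites are the known switches of this programme. The windows run from 250 bases before to 50 after the RefSeq start on the GRCm38.p6 build, 5′ to 3′ on the gene's strand, with matches to the NF-kB type motif GGGNNTTTC on either strand in capitals. Cxcl1 is at chr5:90890995-90891294 and Cxcl2 at chr5:90903649-90903948, both on the plus strand. Il1b is at chr2:129371090-129371389 and Nfkbia, which encodes the inhibitor that shuts NF-kB off again, at chr12:55492598-55492897, both on the minus strand.
Cxcl1: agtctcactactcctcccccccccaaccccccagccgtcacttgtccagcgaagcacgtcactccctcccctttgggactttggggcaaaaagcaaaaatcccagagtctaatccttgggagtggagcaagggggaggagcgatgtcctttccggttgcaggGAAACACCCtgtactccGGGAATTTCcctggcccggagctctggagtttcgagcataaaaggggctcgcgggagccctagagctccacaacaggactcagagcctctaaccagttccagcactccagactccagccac
Cxcl2: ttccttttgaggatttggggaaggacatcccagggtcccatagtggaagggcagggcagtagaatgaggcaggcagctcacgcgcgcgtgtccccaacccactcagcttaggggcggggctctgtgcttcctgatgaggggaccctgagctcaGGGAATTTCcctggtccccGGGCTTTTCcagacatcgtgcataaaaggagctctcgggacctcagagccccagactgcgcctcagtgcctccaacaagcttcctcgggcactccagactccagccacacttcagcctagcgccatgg
Il1b: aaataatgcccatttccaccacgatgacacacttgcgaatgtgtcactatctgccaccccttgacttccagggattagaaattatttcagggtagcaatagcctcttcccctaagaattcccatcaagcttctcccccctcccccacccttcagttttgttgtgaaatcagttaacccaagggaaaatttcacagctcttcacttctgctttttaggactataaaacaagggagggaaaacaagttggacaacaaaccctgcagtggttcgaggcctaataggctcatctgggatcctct
Nfkbia: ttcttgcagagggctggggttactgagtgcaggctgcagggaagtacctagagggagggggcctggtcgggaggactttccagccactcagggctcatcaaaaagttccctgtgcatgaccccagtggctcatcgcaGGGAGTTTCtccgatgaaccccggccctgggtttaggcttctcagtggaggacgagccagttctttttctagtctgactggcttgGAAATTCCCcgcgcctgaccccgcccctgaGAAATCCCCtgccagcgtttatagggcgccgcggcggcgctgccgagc
Cxcl1 and Cxcl2 each held 2 matches, Nfkbia held 3 and Il1b held 0. Of all 32851 windows of this length, 4.36% held at least 1. Among windows searched but not printed, that of Cxcl3 held 1 match and that of Ppbp 0. None of the 4 printed windows nor that of Cxcl3 held the AP-1 type motif TGANTCA, which that of Ppbp held once and 7.81% of all windows held, and no pair of the capital stretches overlaps. A match is a run of letters and no measured binding site, and its absence says nothing on factors that bind elsewhere.

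The levels of the other secreted factors ranged widely. Ccl4 and Ccl3, chemokines for T cells and monocytes, stood at 11701 and 4053 CPM in C1 and at 7360.3 and 2235 in C2. Tnf, the tumour necrosis factor gene, stood at 1044 and 789 CPM, and Il1a, the other interleukin 1 gene, at 1017 and 646. Osm, an interleukin 6 family cytokine, stood at 54.3 and 80 CPM. Il12b, a subunit of interleukins 12 and 23, stood at 80.8 and 40.6 CPM. Il6 had no UMI in either library; a count of 0 allows up to 3 UMIs. Cxcl16 and Ccl12 stood at 702 and 536 CPM in C1 and 956 and 528 in C2. Ppbp, a neutrophil chemokine best known from platelets, had 42 UMIs in C2, all in 1 barcode, and 1 barcode held 47.1% of the Cxcl1 UMIs of C2. Of the repair factors, Tgfb1 stood at 274 and 308 CPM and Pdgfb at 204 and 214, while the interleukin 1 receptor antagonist Il1rn was at 10.3 and 27.4.

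Between the libraries, most of these secreted factors lay within 2-fold. Of the pro-inflammatory cytokines 0 of 7 were at least 2-fold higher in C1 and 0 lower, and of the neutrophil chemokines 1 and 1 of 4. Over all 10841 genes with at least 30 UMIs in either library and not used for the selection, 8.56% were at least 2-fold higher in C1 and 3.57% at least 2-fold lower. Of the monocyte and lymphocyte chemokines 2 of 12 were higher and 2 lower. The higher ones were Ccl5, a chemokine of T cells and NK cells, at 234 and 78.9 CPM, where free RNA held 252 and 1079, and Cxcl14. The lower ones were the monocyte chemokine Ccl2, at 238 and 535 CPM, and Ccl8, with 14 UMIs in C1 and 43 in C2. Of the repair factors 4 of 10 were higher and 2 lower.

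Cxcl2 and Il1b were present in part of the barcodes and absent in others. At 3000 UMIs, 71.3% of barcodes in C1 and 51% in C2 held Cxcl2, and 76.9% and 66.3% held Il1b; unthinned, the shares were 73.8% and 55.8% for Cxcl2 and 79.1% and 71.7% for Il1b. In T cells of C1, which should lack both genes, the thinned shares were 3.58% and 2.39%. The presence of one went with that of the other. In C1, Il1b was found in 83.3% of 1535 barcodes with Cxcl2 and in 60.9% of 619 without, and in C2 in 77.4% of 53 and 54.9% of 51. Tnf was found in 81.6% of Cxcl2 barcodes of C1 and in 57.7% of the rest. The median barcode of C1 held 2204 CPM of Cxcl2 and the barcode at the 90th percentile 11924, while in C2 the median was 243 CPM and the 90th percentile 5578. The MHC class II gene H2-Ab1, which the selection did not use, spread far less, from 6587 CPM at the 10th percentile to 19932 at the 90th in C1. C1qa ran from 2936 to 8079 CPM, but it helped choose the barcodes.

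**Figure D1:**
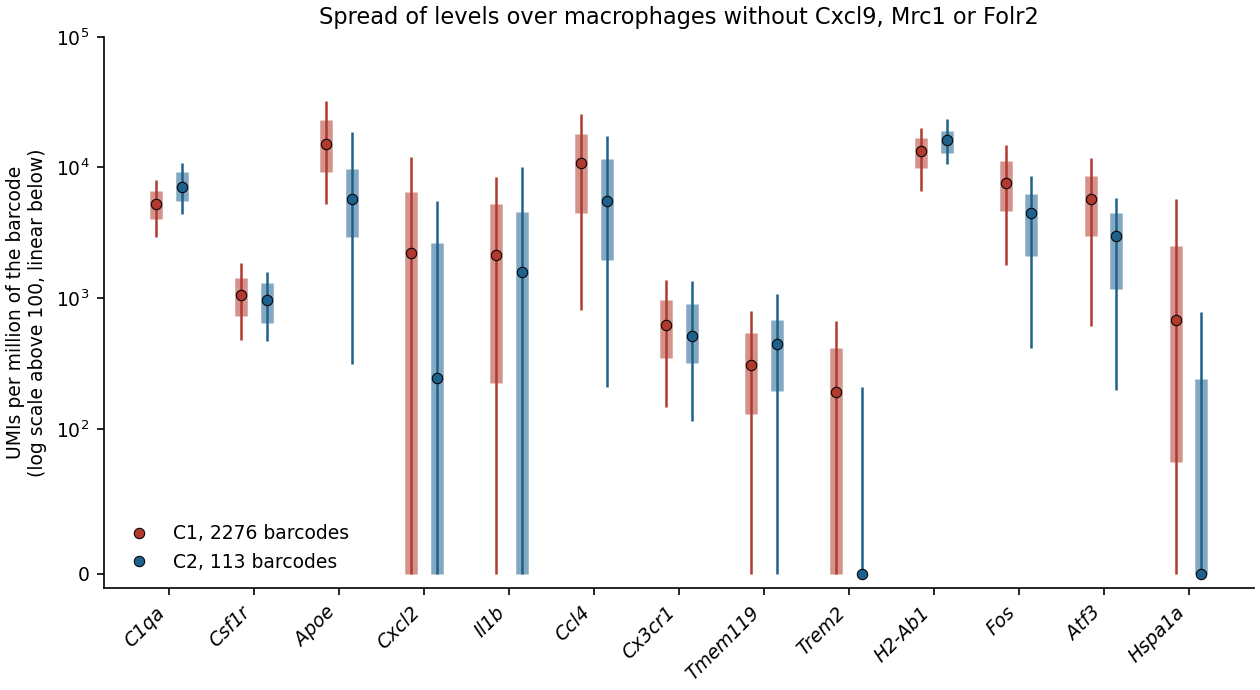
Level of 13 genes in single barcodes of macrophages without Cxcl9, Mrc1 or Folr2, in CPM of the barcode's own UMIs. Points are medians, thick bars run from the 25th to the 75th percentile and thin lines from the 10th to the 90th, for 2276 barcodes of C1 and 113 of C2. C1qa, Csf1r and H2-Ab1 are narrow, while Cxcl2, Il1b and Hspa1a spread widely from 0. C1qa and Csf1r helped choose the barcodes, so their spread is a description only.

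Genes of the first minutes of a response were abundant, and higher in C1 than in C2. The 20 immediate early genes, which cells transcribe within minutes of a stimulus without making new protein, summed to 44373 CPM (44272 to 44475) in C1 and 23194 CPM (22882 to 23509) in C2. Among the immediate early genes 10 of 20 were at least 2-fold higher and 0 lower, with a median log2 ratio of 1.01 beside -0.0021 over all genes tested. Fos and Junb, which encode AP-1 subunits, stood at 7979 and 5051 CPM in C1 and 4699 and 2950.5 in C2. Atf3, a stress-induced factor, stood at 6004 and 3149 CPM and Egr1 at 3091 and 1141. Klf2, a factor that restrains myeloid activation, stood at 1479 CPM in C1 and 247 in C2, a ratio of 5.99. Dusp1, a phosphatase that shuts off stress kinases, stood at 4371 and 3390.2, a ratio of 1.29.

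Heat shock chaperones, which refold damaged proteins, differed more between the libraries. Their 12 genes summed to 9109 CPM in C1 and 3873 in C2, and 8 of 12 were at least 2-fold higher in C1, with a median log2 ratio of 1.70. The inducible Hspa1a and Hspa1b stood at 1857 and 1275 CPM in C1 and at 178 and 94.3 in C2. The mostly constitutive Hspa8 and Hsp90ab1 had ratios of 1.54 and 1.17. In T cells the chaperones summed to 4606 CPM in C1 and 3985 in C2, and the immediate early genes to 18080.0 and 8422, so that T cells of C1 were above those of C2 as well. Digestion at raised temperature was used for glands only; as the libraries carry no tissue label, its part in these levels was not tested.

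NF-kB targets and their feedback genes stood at 12031 and 8659.6 CPM in C1 and C2, and 3 of 17 were at least 2-fold higher in C1. Zfp36, whose protein destroys cytokine mRNAs, made the largest part of this sum, at 6288 and 5089 CPM. Nfkbia stood at 2181 and 1184, Nfkbiz, an atypical inhibitor, at 1604 and 1046, and Tnfaip3, an enzyme that ends NF-kB signalling, at 752 and 352. Barcode by barcode, at 3000 UMIs, the immediate early sum and the NF-kB sum moved together, with Pearson's r of 0.716 over 2154 barcodes of C1 and 0.640 over 104 of C2 (Spearman's rho 0.706 and 0.640). The barcodes share library and depth, and this is a description with no test. The immediate early sum had r of -0.0084 with MHC class II genes in C1 and 0.238 in C2, and r of 0.160 and 0.024 with the chaperones. Its r was 0.266 and 0.037 with the neutrophil chemokines and 0.341 and 0.332 with the pro-inflammatory cytokines.

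Antigen presentation genes were high in both libraries. MHC class II genes summed to 92779 CPM (92632 to 92927) in C1 and 112474 CPM (111787 to 113165) in C2, over 10 genes of which 0 were 2-fold higher and 1 lower in C1. Cd74, the invariant chain that guards the peptide groove, stood at 50239 and 61423 CPM, and H2-Aa at 14550.4 and 16201. Every barcode at 3000 UMIs held Cd74, while 24.6% of T cells of C1 and 16.6% of C2 held Cd74. The lower gene was H2-DMb2, part of the peptide exchange factor, at 9.37 CPM in C1 and 25.2 in C2. Ciita, the master switch of class II, stood at 71.7 and 133. MHC class I genes summed to 7936 and 11568 CPM, with 1 of 12 at least 2-fold lower in C1. That gene was Tap1, a peptide transporter, at 79.3 and 174 CPM. The costimulatory ligand Cd86 stood at 465 and 562 CPM, and the checkpoint ligand Vsir at 269 and 271; of the costimulation and checkpoint list 0 of 15 genes were at least 2-fold higher in C1 and 2 lower.

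Interferon gamma targets were lower in C1. They summed to 1476 CPM (1458 to 1495) in C1 and 2448 CPM (2348 to 2552) in C2, and 11 of 18 were at least 2-fold lower and 1 higher, with a median log2 ratio of -1.18. Gbp2 and Iigp1, guanosine triphosphatases that attack intracellular microbes, stood at 11.6 and 3.77 CPM in C1 and 121 and 55.9 in C2. Fcgr4, an activating Fc receptor, stood at 111 and 342. Irf8, which also fixes the identity of myeloid cells, had a ratio of 1.04, and Cxcl10 of 1.08. Free RNA of C2 was also richer in this list, with 686 CPM against 232 in C1, and its part was not tested. The wider interferon response list did not follow, with 2293 CPM in C1 and 2032 in C2 and 3 of 17 genes at least 2-fold higher in C1 and 1 lower.

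**Figure D2:**
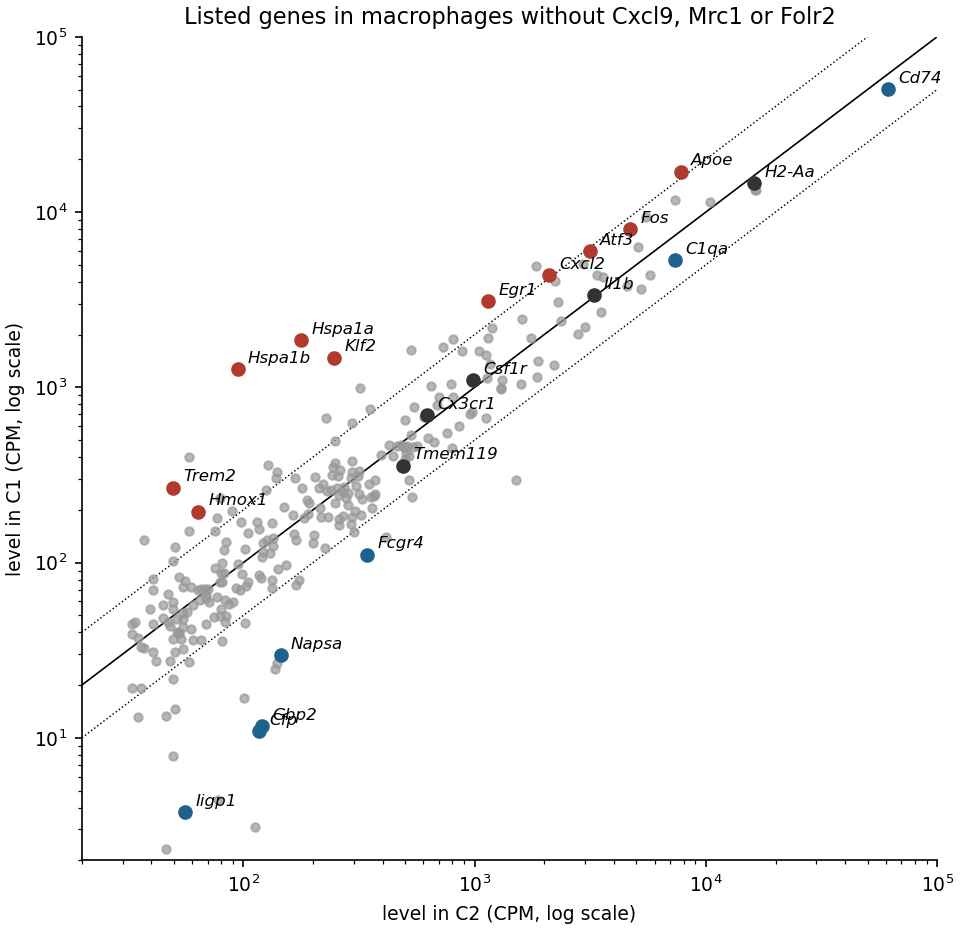
Level in C1 (vertical axis) against level in C2 (horizontal axis) of 278 listed genes with at least 30 UMIs in both libraries, in macrophages without Cxcl9, Mrc1 or Folr2; both axes are log scales of CPM. The solid line marks equal levels and the dotted lines a 2-fold difference. Hspa1a, Hspa1b, Klf2 and Trem2 lie above the upper dotted line, Fcgr4, Gbp2 and Iigp1 below the lower one, and Csf1r, Il1b and Cx3cr1 near the solid line.

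A set of genes best known from microglia, the macrophages of the brain, was present in both libraries in part. Cx3cr1, the fractalkine receptor, stood at 695 CPM (683 to 708) in C1 and 623 CPM (573 to 676) in C2. Tmem119, a surface protein used as a microglial marker, stood at 357 CPM (348 to 366) and 488 CPM (444 to 535), and at 3000 UMIs 60.4% and 65.4% of barcodes held it, against 0.477% and 0.0972% of T cells. Olfml3 stood at 266 and 212 CPM and the nucleotide receptor P2ry12 at 34 and 30.7. Sall1, the factor that defines microglia, had no UMI in either library. The lectin Siglech, also a marker of plasmacytoid dendritic cells, stood at 103 and 9.87 CPM in C1 and C2, and was found at 3000 UMIs in 23.5% and 1.92% of barcodes. Trem2, a lipid-sensing receptor, stood at 268 and 49.3 CPM and was found in 49.1% and 8.65% of barcodes. In C1, Siglech was found in 24.6% of barcodes with Trem2 and in 22.4% of those without. Of the whole list, 5 of 13 genes were at least 2-fold higher in C1 and 0 lower.

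The summed level of genes for lipid handling was higher in C1, at 20274 CPM against 10755 in C2, of which Apoe made most. Lpl, the lipoprotein lipase, stood at 303 and 138 CPM, and Npc2, which exports cholesterol from lysosomes, at 1131 and 1129. In all 6 of 17 were at least 2-fold higher in C1 and 0 lower, but the list's median log2 ratio was 0.05, so the list as a whole hardly differed. Of the 6, Fabp4 had 331 UMIs in C1 and 0 in C2, so its ratio rests on the floor of 3 UMIs. Spp1, osteopontin, stood at 49.4 CPM in C1 with 3 UMIs in C2. Gpnmb, a marker of lipid-laden macrophages, had no UMI in either library.

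Lysosomal genes differed little between the libraries, and a few complement genes more. Lysosomal genes summed to 29904 CPM in C1 and 29073 in C2, with 0 and 0 of 18 past 2-fold. Ctss, the protease that trims the class II invariant chain, stood at 4380.3 and 5737 CPM, and Cst3, an inhibitor of such proteases, at 9337 and 5499.7. Tyrobp, the adaptor that passes on the signal of Trem2 and other receptors, stood at 2383 and 2355 CPM. The receptor for dying cells Axl stood at 336 and 262, and Cd36, a scavenger receptor, at 302 and 168. Fc receptor genes summed to 3278 and 4687 CPM, led by their common gamma chain Fcer1g at 2206 and 3001. Cfp, properdin, which stabilises the alternative complement pathway, stood at 10.9 and 116 CPM in C1 and C2, and factor B, Cfb, another part of that pathway, at 0.547 and 50.4. Of the complement list 1 of 10 genes beside C1q were at least 2-fold higher in C1 and 3 lower. Of the scavenger receptor list 2 of 17 were higher and 1 lower.

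For the remaining lists, the shares over all genes tested were 8.56% at least 2-fold higher in C1 and 3.57% lower. Counts for the transcription factors, pattern recognition genes and receptors lay near those shares. Of the myeloid transcription factors 3 of 22 were at least 2-fold higher in C1 and 0 lower, with Spi1 (PU.1), needed for the whole lineage, at 405 and 519.7 CPM. Of the pattern recognition genes 1 of 20 were higher and 0 lower, with Cd14, the co-receptor for endotoxin, at 1917 and 1138 CPM, Tlr2 at 379 and 294, and Nlrp3, an inflammasome sensor, at 169 and 97.6. Of the cytokine and chemokine receptors 0 of 24 were higher and 1 lower. The lower one was Ccr1, at 74 and 169 CPM. The monocyte receptor Ccr2 stood at 39.8 and 49.3 CPM, above the free RNA of 20.7 in C1 and near that of 55 in C2. Iron genes summed to 16609.9 and 14763 CPM, mostly the ferritin chains Fth1 and Ftl1, and 2 of 9 were at least 2-fold higher in C1 and 0 lower; Hmox1, which breaks down haem, stood at 195 and 63.6. Glycolysis genes summed to 1995 and 3006 CPM, with 2 of 13 at least 2-fold lower in C1, 1 of them Ldha at 149 and 302. The proliferation gene Mki67 was found at 3000 UMIs in 4.41% and 5.77% of barcodes, against 3.34% and 10.2% of T cells, and the cell cycle list summed to 164 and 126 CPM. The monocyte-derived list summed to 3072 and 3623 CPM, with 6 of 17 genes higher and 1 lower in C1. It held calcium-binding genes such as S100a6, at 74.4 and 14.3. Free RNA held 958 and 1410 CPM of this list. It lay above these macrophages for 8 of the 18 genes in C1 and 10 in C2, and its part in these counts was not tested. The log2 ratio of S100a10, another gene of the list, went from 2.47 to -0.18 when sets were formed after thinning.

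The rankings left out, among others, genes with more free RNA than these macrophages. Xcl1, whose ratio of C1 over C2 was larger than any below, was not ranked. Among the genes ranked, those that most separated the 2 libraries came partly from these lists. In C1 the 10 ranked genes with the largest ratio and at least 50 UMIs were Fcrls, Il1rl2, Sh2b2, Hspa1b, Bmp2, Hspa1a, Siglech, Tubb2b, Fhad1 and Mir99ahg. Of these, Fcrls, an Fc receptor-like gene of mouse microglia, Il1rl2, the interleukin 36 receptor, Sh2b2, Bmp2, Tubb2b and Fhad1 had 1 UMI each in C2, so their ratio is not given. In C2 the 10 were Tgm2, Dnase1l3, Iigp1, Cfp, Gbp2, Vcam1, AA467197, Acp5, Tgfbi and Napsa. Tgm2, a transglutaminase, stood at 3.1 and 112 CPM in C1 and C2, and the nuclease Dnase1l3 at 4.44 and 77.8. Tgfbi, a matrix protein induced by TGF-beta, stood at 298 CPM (289 to 306) and 1505 CPM (1427 to 1587), and at 3000 UMIs 50.1% and 89.4% of barcodes held it. The adhesion molecule Vcam1 stood at 16.9 and 101 CPM. With only genes that could expect at least 10 UMIs in the smaller set, 353 were at least 2-fold higher and 115 lower in C1, against 928 and 387 without that limit.

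Against Cxcl9 macrophages of the same library, these macrophages had lower levels of interferon-induced genes in both C1 and C2. As Cxcl9 is itself an interferon gamma target and chose the sets, such a difference is a description. Of 10838 genes in C1, 7.47% were at least 2-fold higher and 4.41% lower in these macrophages, and of 6564 genes in C2, 0.503% were higher and 3.85% lower. Of the interferon gamma targets 9 of 18 were at least 2-fold lower in C1 and 10 of 18 in C2, with median log2 ratios of -0.89 and -1.23 beside 0.0057 and -0.043 over all genes tested. Gbp2 stood at 11.6 against 199.8 CPM in C1 and 121 against 417 in C2. Of the wider interferon response list, 8 of 17 were lower in C1 and 6 of 17 in C2, among them Isg15, a ubiquitin-like protein, at 131 against 408 CPM and 84.4 against 209.

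Among the genes ranked, the 10 most clearly lower than in Cxcl9 macrophages in both libraries were Calhm6, Gbp2, Cd40, Gbp4, Il1rn, Ifi47, Ifi211, Cxcl10, Ifit3 and Nampt. The costimulatory receptor Cd40 stood at 13.4 against 148 CPM in C1 and 46.1 against 148 in C2. Il1rn, which blocks the interleukin 1 receptor, stood at 10.3 against 131 and 27.4 against 82.9. The 10 that ranked highest over both libraries were Arap3, Slco2b1, Trim24, Pde3b, Spsb1, Nlrp1b, Fgd3, Abca9, Aagab and Rin3. Only Arap3 was at least 2-fold higher in both. In the Cxcl9 set of C1 these genes had from 8 to 37 UMIs each, so their ratios in C1 rest on few counts. Slco2b1, an organic anion transporter, stood at 151 against 77 CPM in C1 and 58.1 against 20.5 in C2, and Arap3, a regulator of small GTPases, at 66.1 against 27.1 and 47.1 against 21.9. With at least 10 UMIs expected in the smaller set, 144 genes were at least 2-fold higher and 63 lower in C1.

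The neutrophil chemokines were above those of Cxcl9 macrophages in C2, where 3 of 3 were at least 2-fold higher and 0 lower, while in C1 0 of 4 were higher and 0 lower. The 3 in C2 were Cxcl2, Cxcl1 and Ppbp, and the top barcode of each held 16.4%, 47.1% and all of its UMIs, respectively. Of the pro-inflammatory cytokines 1 of 7 were higher and 1 lower in C2, and 0 of 7 higher and 2 lower in C1. In C2 Cxcl2 stood at 2096 against 881 CPM in Cxcl9 macrophages, Il1b at 3268 against 1643 and Il1a at 646 against 215. In C1 the same pairs were 4384 and 4196, 3366 and 3395, and 1017 and 887. The difference between the libraries was not tested. Ccl4 followed in C2, at 7360.3 against 3573 CPM, and so did Cd14, at 1138 against 541. In C1, where 50 Cxcl9 macrophages were found, Il12b ran the other way, at 80.8 against 368 CPM.

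Genes of monocyte-derived cells were lower than in Cxcl9 macrophages of C2. Their list summed to 3623 against 5921 CPM, and 11 of 17 were at least 2-fold lower, against 3 of 17 in C1. The intermediate filament Vim stood at 349 against 1066 CPM in C2 and 279.9 against 327 in C1, and the lysozyme gene Lyz2 at 1259.8 against 4208 and 1624 against 1505. Ly6c2 had no UMI in these macrophages of C2 and stood at 151 CPM in Cxcl9 macrophages, and the latter held 492 CPM of monocyte markers in all, against 72.4. Tmem119 went the other way, at 488 against 273 CPM in C2 and 357 against 266 in C1. MHC class II genes hardly differed, with 0 of 10 past 2-fold in both libraries.

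**Figure D3:**
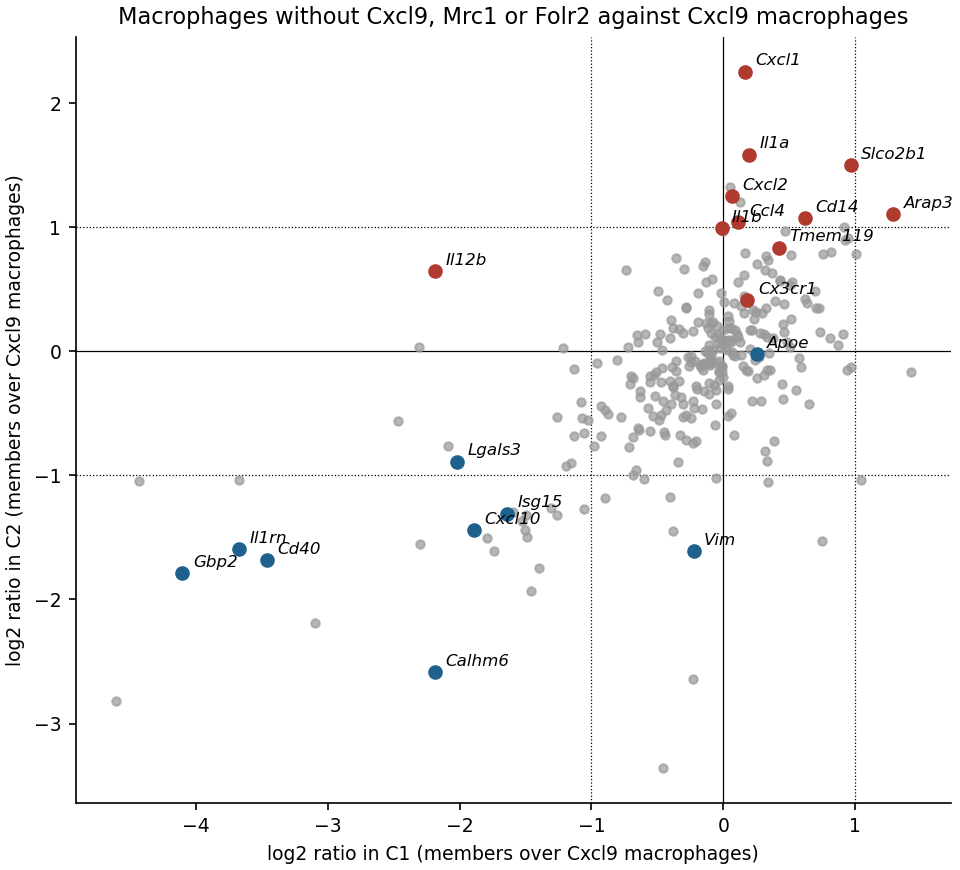
Log2 ratio of macrophages without Cxcl9, Mrc1 or Folr2 over Cxcl9 macrophages in C1 (horizontal axis) and C2 (vertical axis), for 303 listed or ranked genes with at least 10 UMIs in Cxcl9 macrophages of both libraries and in these macrophages of C2. Dotted lines mark 2-fold; coloured points carry gene names, red above and blue below 0 in C2. Gbp2, Cd40, Il1rn and Cxcl10 lie lower left, lower in both libraries, and Cxcl1, Cxcl2 and Il1a lie above the upper dotted line in C2 and near 0 in C1.

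Against the 118 Mrc1 or Folr2 macrophages of C1, the resident and perivascular genes were lower. C2 held 12 such barcodes, too few for values. Of 10840 genes, 6.11% were at least 2-fold higher in these macrophages and 2.58% lower. The resident list summed to 1055 CPM against 2977. It holds Mrc1 and Folr2, which chose the sets, so part of this gap was fixed by the selection. Of its other genes 8 of 10 were at least 2-fold lower, with a median log2 ratio of -2.62 beside 0.013 over all genes tested. A gene could be tested on its UMIs in the Mrc1 or Folr2 set alone, as Cd163 was. Such a gene could only come out lower, because these macrophages held far more UMIs in all. The count minimum thus fixed part of this count and of this median. The platelet factor Pf4 stood at 69.8 against 308 CPM and the growth factor Igf1 at 7.66 against 55.9. Pltp, a phospholipid carrier, stood at 7.91 against 86.7 CPM and Mertk, a receptor for dying cells, at 8.45 against 35.4. Cd163, the haemoglobin scavenger receptor, had 1 UMI in these macrophages, or 0.0608 CPM, against 39.9 CPM. Lyve1, Vsig4 and Cd209g had no UMI here.

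Genes with more free RNA than these macrophages were not ranked, which removes genes near 0 in these macrophages. Among the genes ranked, the 10 most clearly lower were Clec4a1, Pltp, Clec4b1, Igf1, Fcrls, Aoah, Pf4, Mertk, Ms4a4a and Itsn1. The lectins Clec4a1 and Clec4b1 stood at 4.01 and 6.27 CPM against 53.6 and 57. The 10 genes that ranked highest, led by Fabp4, Plvap and Ogfod2, each had 1 UMI in the Mrc1 or Folr2 set, so their ratios rest on that single count; Fabp4, Plvap and Pecam1 are endothelial genes. With at least 10 UMIs expected in the smaller set, 145 genes were at least 2-fold higher and 40 lower. Lyz2 was lower, at 1624 against 3701 CPM, and Apoe stood at 17016 against 22291. The immediate early genes did not separate the sets, with 0 of 20 higher and 0 lower by 2-fold, and neither did the microglia-type genes, with 1 higher and 1 lower of 13. Cxcl2 stood at 4384 against 3742 CPM and Il1b at 3366 against 3408.

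**Figure D4:**
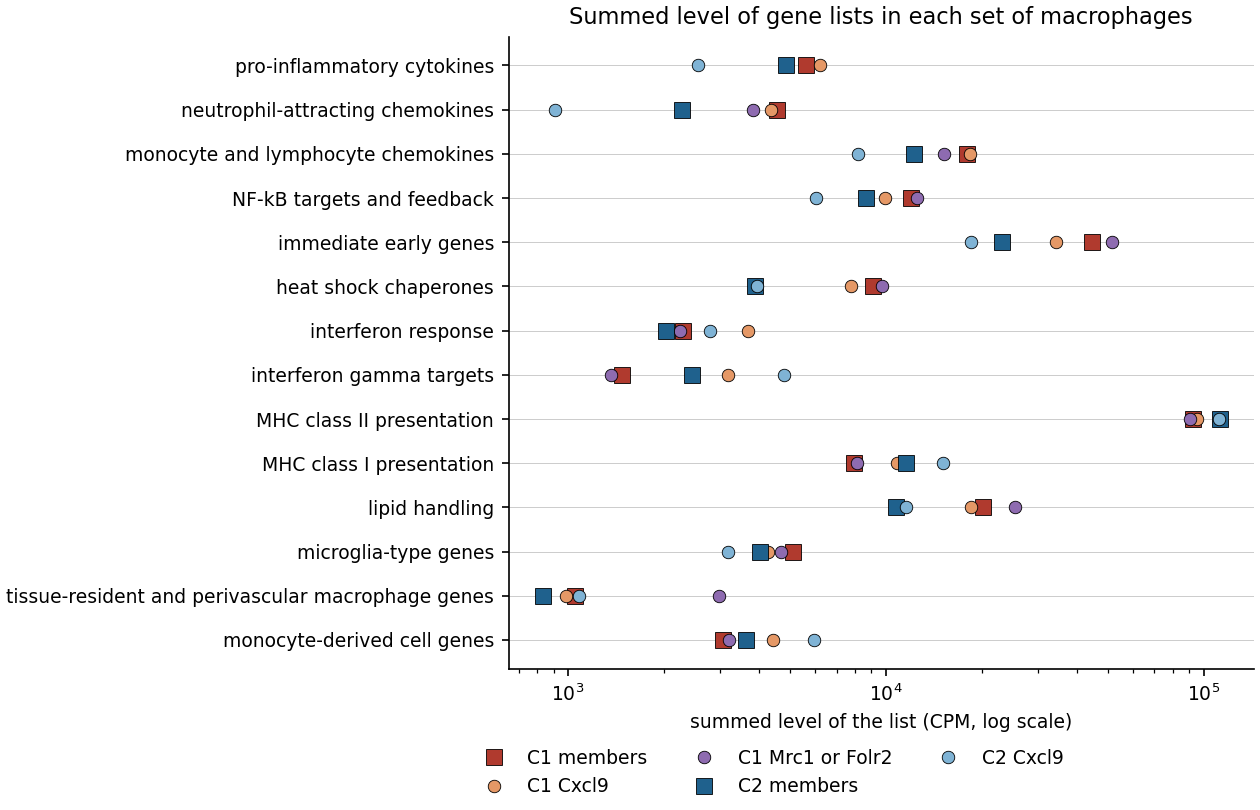
Summed level of 14 gene lists in 5 sets of macrophages, as CPM on a log scale. Squares are macrophages without Cxcl9, Mrc1 or Folr2 (members), circles the Cxcl9 and the Mrc1 or Folr2 macrophages of the same libraries. Interferon gamma targets are highest in the 2 Cxcl9 sets, the resident list in the Mrc1 or Folr2 set, and the immediate early and heat shock lists are higher in all C1 sets than in the C2 sets. The resident list holds Mrc1 and Folr2, which chose the sets.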

How the data were processed

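Single-cell expression of CD45-sorted mouse leukocytes was measured. The deposited matrices hold raw UMI counts per gene and barcode for 32285 genes, not normalized and not restricted to cells, and were written by Cell Ranger 4, per the file headers. STAR 2.7.10a, Cell Ranger 6.1.2 and the mm10 build are listed without roles, per the submitters' processing notes, and which version made these matrices is not settled here. The labels' protocols name the BD Rhapsody workflow and the design text 10x. Total depth ran from 37902916 to 77819179 UMIs per library, and 78 feature rows share a symbol with another and were kept apart by gene ID.

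Barcodes were selected on raw UMIs as stated. UMIs were summed per set and library and given as CPM, with exact Poisson intervals for levels and exact Clopper-Pearson intervals for shares, and intervals and floors cover counting error only. No replicate exists for any group, so no p-value was computed. A ratio needed at least 30 UMIs in either set; a 0 was set to 3 UMIs and gave no ratio where that bound did not lie below the other set. Shares were recomputed after thinning to 3000 UMIs. T cells were barcodes with at least 3 UMIs over Cd3d, Cd3e and Cd3g and none of Cd79a or Csf1r, with a median depth of 5940 UMIs in C1 and 4960 in C2. Doublets were scored with Scrublet in scanpy 1.11.5, which marked 166 barcodes of C1 (2.96%), 116 of C4 (1.95%), 2 of C3 (0.0234%) and 0 of C2. The caller thus failed on C2 and C3. No doublet was removed, and leaving out the top 5% of scores was an alternative. Values were computed with Python 3.11.15, numpy 2.4.6, scipy 1.17.1 and pandas 2.3.3 and drawn with matplotlib 3.10.9. Sequences and positions are from RefSeq (GRCm38.p6).

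The members and lists were chosen with earlier results of these data known. Named genes are the given markers, up to 4 genes per list with the highest median CPM, the list's gene of largest ratio between libraries, and the 10 genes leading each ranking in each direction. Rankings left out salivary, mitochondrial, receptor, erythroid and free RNA genes and those used for the selection. Other genes named were chosen after their values were seen: Cd68, Adgre1, Flt3, Cd209a, Il6, Ccl2, Ccl5, Ccl8, Egr1, Cfb, H2-DMb2, P2ry12, Sall1, Lpl, Gpnmb, Cd163, Lyve1, Vsig4, Cd209g and S100a6.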

Additional observations from a re-analysis of the deposited data

Results flagged for a closer look

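C3 held 4 barcodes that met every criterion, above the limit that a count of 0 allows, although it was too small a set for the values above. They held 13903 UMIs in all, with 30 UMIs of C1qa, 10 of Csf1r, 72 of Apoe, 3 of Cxcl2, 1 of Il1b and none of Cx3cr1.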

How the results depend on the processing

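No paired analysis was possible because the libraries carry no replicate numbers, and no library could be left out because each stands alone. Under the alternatives, 47 of 100 recomputed levels of the given markers moved outside their counting intervals, as did 326 of 820 list sums. Of 5465 log2 ratios recomputed under the alternatives, 4740 moved by less than their counting interval, 720 moved further and 5 that lay past 2-fold changed sign. The 5 concerned S100a10, at 2.47 between C1 and C2 as reported, and Hspb1, at -1.26 against the Cxcl9 set of C1 and -1.01 against the Mrc1 or Folr2 set. Thinning to 3000 UMIs before forming the sets gave shares of macrophages of 95.6% in C1 and 48.4% in C2, 526 genes lower than in the Mrc1 or Folr2 set, 121 lower than in the Cxcl9 set of C2, a log2 ratio of -0.18 for S100a10 between C1 and C2 and of 0.74 for Hspb1 against the Mrc1 or Folr2 set. At or above median depth, 1134 barcodes were left in C1 and 34 in C2 (20.9% of its macrophages), 394 genes were lower than in the Cxcl9 set of C2, and Hspb1 stood at 0.55 against the Cxcl9 set of C1 and 0.070 against the Mrc1 or Folr2 set. Without barcodes holding 2 or more UMIs of NK, plasma, endothelial or fibroblast markers, 1042 and 42 were left (42.4% of macrophages in C2). Then 601 genes were lower in C1 than in C2, 781 and 123 lower than in the Cxcl9 sets of C1 and C2, 431 lower than in the Mrc1 or Folr2 set, where Hspb1 stood at 0.55. As means of per-barcode CPM, 429 genes were lower than in the Mrc1 or Folr2 set and 57 higher than in the Cxcl9 set of C2. The causes of these shifts were not tested.

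Count minimums set how many genes could be tested. With at least 100 UMIs in either set, 595 genes were higher and 173 lower in C1 than in C2, 197 lower than in the Cxcl9 set of C1, 12 higher and 79 lower than in that of C2, and 339 higher and 85 lower than in the Mrc1 or Folr2 set. With a minimum of 10, 604 were lower in C1 than in C2, 876 lower than in the Cxcl9 set of C1, 174 higher and 666 lower than in that of C2, and 535 lower than in the Mrc1 or Folr2 set. With at least 10 UMIs expected in the smaller set, a limit chosen after seeing the data, the counts were 353 and 115 between libraries, 144 and 63 against the Cxcl9 set of C1, and 145 and 40 against the Mrc1 or Folr2 set. The order of C1 and C2 turned in 3 of 27 lists under some alternative: cell cycle, repair factors, and cytokine and chemokine receptors. In C2, 113 barcodes limit every value.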

Other observations

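Some named genes lay outside these themes. Nampt, which makes the cofactor NAD, stood at 43.5 CPM in C1 and 48.2 in C2, against 123 and 121 in Cxcl9 macrophages. Lgals3, galectin 3, stood at 295 and 369 CPM, against 1197 and 684. Slamf7, a receptor of the SLAM family, stood at 253 and 269 CPM, and Lgals9, a ligand of T cell checkpoint receptors, at 251 and 283. Ighm, the constant gene of the IgM heavy chain, stood at 154 and 169.9 CPM in these macrophages, above free RNA at 26.3 and 11.1, while Ms4a1 and Pax5, which mark B cells, had 1 and 0 UMIs in C1 and none in C2.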
